A study of Mus musculus with 8 samples.

Results

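The genes described here are 9 genes by which hepatic stellate cells (HSCs) and their quiescent state are commonly recognised: Lrat, Des, Gfap, Hgf, Reln, Ngfr, Hand2, Lhx2 and Pparg. They were found by gene symbol in the 2 expression tables of the study. All 9 are among the 18645 genes listed for HSCs. For bone marrow-derived macrophages (BMDM), 8 of the 9 are among the 17408 genes listed and Lrat is not listed. Between them the 2 tables list 19382 genes.

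RNA was sequenced from cells of C57BL/6 mice in 4 groups of 2 libraries, in total 8 libraries. Primary HSCs isolated from liver by collagenase perfusion, labelled as activated, were left without drug or exposed to 0.03 µM auranofin, a gold-containing anti-rheumatic drug, for 12 h. The group without drug is labelled untreated and is called vehicle by the study. BMDM, differentiated with M-CSF from the marrow of male mice aged 8 weeks, all received 100 ng/mL LPS and 1 mM ATP, and the treated group also received auranofin for 1 h. The dose in BMDM is 0.1 µM by the sample labels and 0.3 µM by the study's text, and the difference was not resolved. No source used here ties the libraries of a group to separate animals or cultures, so the p-values measure the spread between these libraries, which may be technical.

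In the quiescent liver, HSCs lie in the space between hepatocytes and sinusoids and store vitamin A as retinyl esters in lipid droplets. LRAT makes those esters, and the nuclear receptor PPARγ maintains the adipocyte-like programme of the resting cell. On liver injury, or on plastic in culture, the cells lose their droplets, gain α-smooth muscle actin and lay down collagen, and the loss of quiescence genes is part of this activation. Desmin and GFAP are intermediate filament proteins used to stain the cells, and HAND2 and LHX2 are transcription factors tied to the stellate lineage.

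The values are FPKM, the fragments of a gene divided by the length of its transcripts and the size of the library, and levels of different genes within a table can be compared on that scale. Depth was estimated from the steps that single fragments make in the lowest values, and came to between 29800000 and 39500000 fragments in HSC libraries and between 27500000 and 35200000 in BMDM libraries. At these depths between 48.5% and 54.4% of the values used lay close to a whole number of fragments. A 2-fold higher depth also scored, so depths and fragment counts here are estimates. The first auranofin library of BMDM stood apart: between 742 and 751 of 9232 genes differed by 2-fold or more between it and each of the other BMDM libraries, against 24 to 38 genes in the other pairs. In HSCs the pairs differed in 37 to 58 of 12149 genes. The 4 HSC libraries also carried macrophage transcripts. The 15 macrophage markers summed to between 10426 and 10663 FPKM there, and all 15 were above 0, with Lyz2, the macrophage lysozyme gene, at 5536 ± 24.3 FPKM (SD, n = 2) in vehicle. In BMDM the same markers summed to between 9341 and 10116 FPKM. In bulk RNA of this kind, fewer cells of a type and less RNA per cell cannot be told apart, and the part of macrophage RNA in the values of genes that both tables list was not tested.

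The bases before the start of 3 members are shown, picked by the levels reported here. Des was the highest member in HSCs, Hand2 the second highest there and listed at or near 0 in BMDM, and Lhx2 the highest in BMDM. Each window holds the 250 bases before a RefSeq start on GRCm38.p6, plus strand, 5′ to 3′. They are chr1:75360042-75360291 for Des, chr8:57320733-57320982 for Hand2 and chr2:38339031-38339280 for Lhx2, of which the last few bases lie inside the annotated span of the gene. Capitals mark the E-box CANNTG, the homeodomain core TAATTA and the antioxidant response element core TGACNNNGC, searched on both strands.
Des: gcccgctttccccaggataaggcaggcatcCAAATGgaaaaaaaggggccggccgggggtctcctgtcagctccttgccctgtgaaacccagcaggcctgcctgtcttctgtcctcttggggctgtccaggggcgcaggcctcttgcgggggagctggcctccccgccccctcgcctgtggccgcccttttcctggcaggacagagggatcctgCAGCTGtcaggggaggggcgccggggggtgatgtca
Hand2: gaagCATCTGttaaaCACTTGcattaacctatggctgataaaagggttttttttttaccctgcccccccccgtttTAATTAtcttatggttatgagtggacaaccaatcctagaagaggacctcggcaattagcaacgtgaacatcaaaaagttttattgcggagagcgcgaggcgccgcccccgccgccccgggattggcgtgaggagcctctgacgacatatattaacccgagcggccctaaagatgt
Lhx2: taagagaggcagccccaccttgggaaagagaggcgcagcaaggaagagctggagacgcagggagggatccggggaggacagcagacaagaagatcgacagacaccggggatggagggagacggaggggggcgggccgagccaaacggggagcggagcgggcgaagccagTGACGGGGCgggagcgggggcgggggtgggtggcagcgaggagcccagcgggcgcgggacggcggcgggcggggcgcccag
The windows of Des and Hand2 each hold 2 E-boxes, that of Hand2 also holds TAATTA, and that of Lhx2 holds TGACNNNGC and no E-box. None of these matches overlaps another. Over the 13 windows of the 9 members, 8 held an E-box, 1 held TAATTA and 2 held TGACNNNGC. Of all 32851 promoter windows of the same length, 66.2% held an E-box, 4.84% held TAATTA and 10.2% held TGACNNNGC, so matches to the E-box letters were common. The Lhx2 window has 25 CG pairs, the Hand2 window 15 and the Des window 10, against a median of 6 over all windows. A match to these letters is a description of the sequence and was not measured as binding.

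In HSCs the 9 members spanned the range from one of the more abundant genes to values near 0. Des was highest, followed by Hand2, Pparg, Hgf and Reln, then Lhx2 and Lrat, and last Ngfr and Gfap. The ranges over the 4 HSC libraries did not overlap between neighbours in this order, except for Lhx2 and Lrat. Among all listed genes of the table, the vehicle mean of Des lay at the 92.8th percentile, that of Hand2 at the 78.5th and that of Pparg at the 67.6th, while Lrat lay at the 40.9th, Ngfr at the 25.9th and Gfap at the 9.5th.

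**Figure D1:**
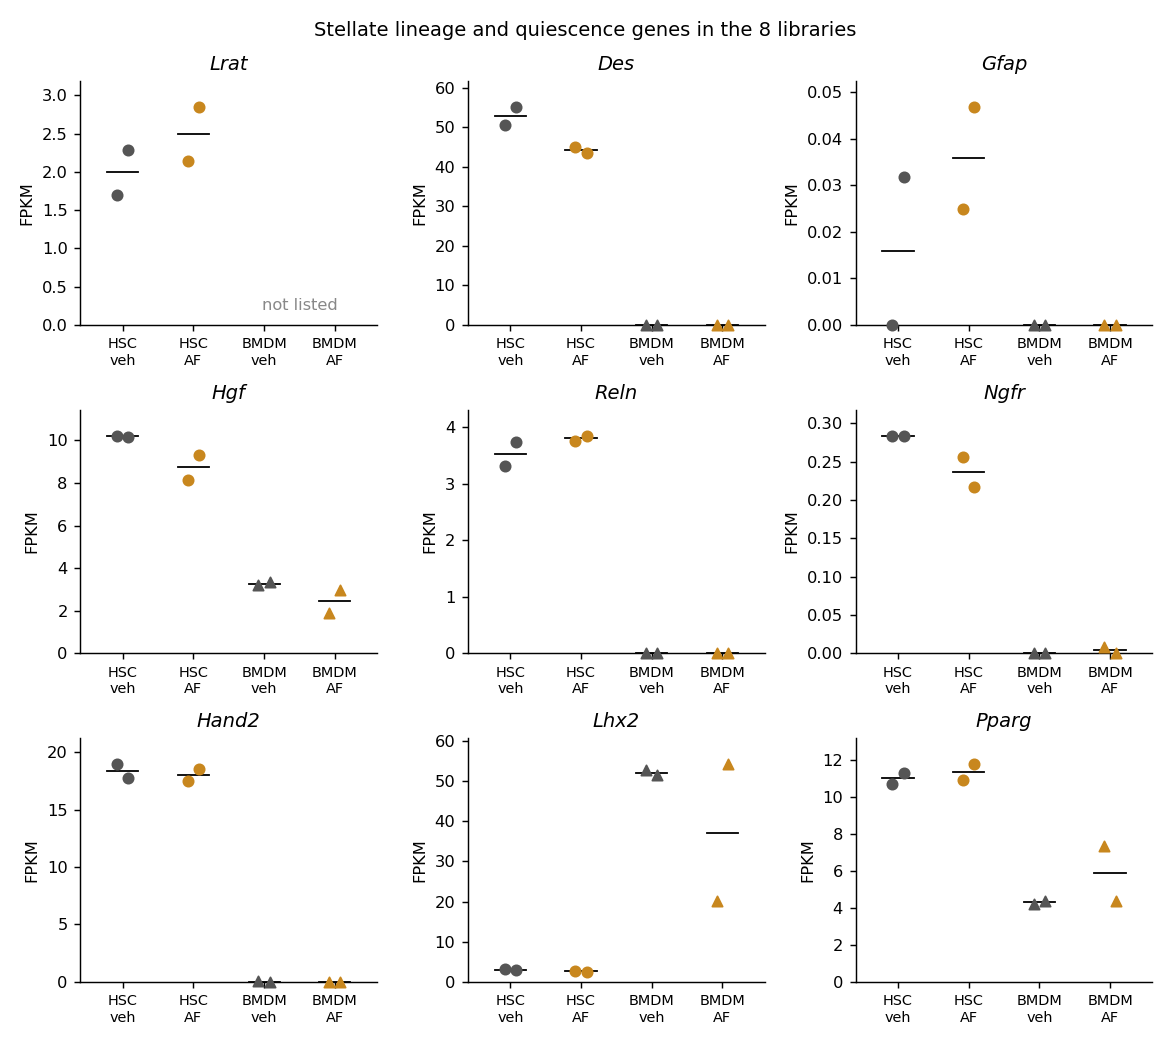
FPKM of each of the 9 members in the 8 libraries (y axis, linear and with its own scale in each panel), by group on the x axis: HSC (circles) and BMDM (triangles), vehicle (veh, grey) and auranofin (AF, amber). Points are single libraries and lines group means of 2; the HSC panels of Des and Hand2 sit far above their BMDM values, Lhx2 is the reverse, and the first auranofin library of BMDM departs from the other 3 for Hgf, Lhx2 and Pparg.

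Auranofin against vehicle in HSCs was compared by limma on log2(FPKM + 1), a scale that understates changes of low genes. The 12149 genes whose mean over the 4 libraries reached 1 FPKM were tested. Of the 9 members, 7 passed this filter, and Gfap and Ngfr did not. None of the 7 had a Benjamini-Hochberg adjusted p under 0.05 in limma, where 2.33% of all genes tested did. At an unadjusted p under 0.05, 2 of the 7 were lower, Des and Hgf, against 17.8% of all genes in either direction. By the rule of at least 1.5-fold with an unadjusted p under 0.05, no member was called, against 0.576% of all genes. The libraries of the 2 groups did not overlap for 4 of the 7, Reln on the higher side and Des, Hgf and Lhx2 on the lower, which is close to the 50.1% of all genes that did not overlap. The median log2 fold change of the 7 was -0.03, and that of all genes tested was 0.00.

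Among the filament genes, Des (chr1:75360292-75368579) encodes desmin, the muscle-type intermediate filament protein that marks HSCs in rodent liver. It measured 50.6 and 55.1 FPKM without drug and 45.1 and 43.4 FPKM with auranofin. Both auranofin libraries were below both vehicle libraries. The means were 52.8 ± 3.15 and 44.2 ± 1.21 FPKM (SD, n = 2), and the log2 fold change was -0.25 (SE 0.051, 95% interval -0.38 to -0.13; adjusted p 0.0751 in limma), so Des did not pass the threshold over all genes. With 1 library left out, the log2 fold change of Des lay between -0.19 (without the second vehicle library) and -0.31 (without the first). Of these fits, only that without the first vehicle library put Des past the threshold over all genes. The lone vehicle library left in that fit is assumed to vary like the auranofin libraries. In that fit 4.26% of all genes tested passed, against 2.33% with all libraries. Gfap (chr11:102887336-102897200), the glial filament gene that marks quiescent and periportal HSCs, was at 0 and 0.032 FPKM in vehicle and at 0.025 and 0.047 FPKM in auranofin, and was not tested at this level. Its groups overlapped.

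The wider family of 17 filament genes and partners, none of them a member, had 11 tested and 0 called, with a median log2 fold change of -0.07. Its most abundant gene, Vim, the vimentin of mesenchymal cells, measured 1184 ± 9.47 FPKM in vehicle and 1070 ± 4.95 FPKM in auranofin (SD, n = 2; adjusted p 0.0840 in limma). Cryab, a small heat shock protein that binds desmin filaments, was at 220 and 214 FPKM in the group means, and Lmna, of the nuclear lamina, at 106 and 110.

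Of the genes for vitamin A storage, Lrat (chr3:82892582-82903974) encodes lecithin retinol acyltransferase, which esterifies retinol. Its values were 1.70 and 2.29 FPKM in vehicle and 2.14 and 2.85 FPKM in auranofin. The first auranofin library lay between the vehicle libraries, so the groups overlapped. The log2 fold change was 0.22 (SE 0.137, 95% interval -0.12 to 0.56; adjusted p 0.458 in limma), the widest interval of the 7. With 1 library left out, the log2 fold change of Lrat lay between 0.077 (without the second auranofin library) and 0.37 (without the first). The libraries held an estimated 288 to 602 fragments of Lrat, the lowest count in the first vehicle library. The related list of 19 retinoid genes had 14 tested and 0 called, with a median of 0.08. Its abundant genes included Dhrs3, a retinal reductase, at 140 and 149 FPKM in the group means, and Aldh1a1, a retinal dehydrogenase, at 47.4 and 43.2. Lrat was thus at 1.99 ± 0.418 FPKM in vehicle (SD, n = 2) in libraries where these retinal enzymes were above 43 FPKM in both group means. In vehicle BMDM, Dhrs3 was at a mean of 39.0 FPKM and Aldh1a1 at 0.048. The part of macrophage RNA in the HSC values of Dhrs3 was not tested.

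Pparg (chr6:115360879-115490404) encodes PPARγ, the nuclear receptor of adipocytes that is high in quiescent HSCs and is also expressed by macrophages. It measured 10.7 and 11.3 FPKM in vehicle and 10.9 and 11.8 FPKM in auranofin, with overlapping groups. Its log2 fold change of 0.04 had a 95% interval from -0.10 to 0.18 (SE 0.056; adjusted p 0.778 in limma). The interval concerns the Pparg RNA of the whole libraries, in which the macrophage transcripts given above were present. Of the lipid droplet and PPARG list, with 17 genes tested, 1 rose and 2 fell, and the median was -0.09. Nr1h3, the liver X receptor LXRα, fell from 44.2 ± 3.15 to 26.9 ± 1.45 FPKM (SD, n = 2; log2 fold change -0.70, SE 0.063, adjusted p 0.00888 in limma). Plin2, which coats lipid droplets, fell from 194 ± 6.09 to 155 ± 2.30 FPKM (-0.33, adjusted p 0.0159), and Cd36, a fatty acid and lipoprotein receptor, rose from 202 ± 6.72 to 238 ± 5.90 FPKM (0.24, adjusted p 0.0464). All 3 of these genes were also present in BMDM, so which cells of the HSC libraries carried them was not tested.

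Among the secreted and signalling members, Hgf (chr5:16553495-16619439) encodes hepatocyte growth factor, which HSCs supply to hepatocytes. It measured 10.2 FPKM in both vehicle libraries and 8.14 and 9.33 FPKM in auranofin. Both auranofin libraries were lower. The log2 fold change was -0.21 (SE 0.068, 95% interval -0.37 to -0.04; adjusted p 0.207 in limma), and it did not pass the threshold over all genes. It was -0.12 without the first auranofin library and -0.29 without the second. In the list of 11 genes of HGF activation and signalling, 8 were tested and 1 fell, with a median of 0.02. This was Plau, the urokinase that can cleave pro-HGF, from 154 ± 0.996 to 129 ± 4.34 FPKM (SD, n = 2; log2 fold change -0.25, adjusted p 0.0353 in limma).

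Reln (chr5:21884454-22344705) encodes reelin, a secreted glycoprotein made by HSCs and few other liver cells. Its values were 3.32 and 3.73 FPKM in vehicle and 3.75 and 3.85 FPKM in auranofin. The groups did not overlap, though the second vehicle library and the first auranofin library were nearly level. The log2 fold change was 0.09 (SE 0.069, 95% interval -0.08 to 0.26; adjusted p 0.567 in limma), and lay between 0.021 without the first vehicle library and 0.15 without the second. Ngfr (chr11:95568818-95587698), the p75 neurotrophin receptor that marks HSCs near portal tracts, was low at 0.284 FPKM in both vehicle libraries and at 0.256 and 0.218 FPKM in auranofin. These values stood for an estimated 26.3 to 32.4 fragments per library, and Ngfr was not tested.

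The receptors and ligands around reelin and p75 held 3 of the called genes, all higher in auranofin. Of 15 genes in the list, 9 were tested, 3 rose and 0 fell, while the median of the 9 was -0.07, since 5 of the 6 others were lower. Lrp8, a reelin receptor also known as ApoER2, rose from 3.07 ± 0.0649 to 4.72 ± 0.0256 FPKM (SD, n = 2; log2 fold change 0.49, SE 0.056, adjusted p 0.0169 in limma). Sort1, sortilin, a co-receptor of p75, rose from 15.3 ± 0.230 to 19.2 ± 0.129 FPKM (0.31, adjusted p 0.0239). The ligand gene Reln and the receptor gene Ngfr are described with their own values above and were not called.

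The transcription factors were represented by Hand2 and Lhx2. Hand2 (chr8:57320983-57324517), a basic helix-loop-helix factor of mesenchymal cells, measured 19.0 and 17.8 FPKM in vehicle and 17.5 and 18.5 FPKM in auranofin. The groups overlapped and the log2 fold change was -0.03 (SE 0.051, 95% interval -0.16 to 0.10; adjusted p 0.820 in limma). Lhx2 (chr2:38339271-38369737), a LIM homeodomain factor whose loss leads to activated HSCs and fibrosis in mice, measured 3.09 and 2.91 FPKM in vehicle and 2.72 and 2.50 FPKM in auranofin. Both auranofin libraries of Lhx2 were lower, with a log2 fold change of -0.15 (SE 0.069, 95% interval -0.32 to 0.02; adjusted p 0.337 in limma). Lhx2 was also present in BMDM, at a mean of 52.1 FPKM in vehicle. The part of macrophage RNA in its HSC values, and in their lower auranofin side, was not tested. Of 27 other mesenchymal transcription factors, 24 were tested and 0 were called, with a median of 0.00. By level Klf6, a zinc finger factor, led at 39.5 and 40.2 FPKM in the group means, followed by Zeb2 at 27.6 and 24.4 and Gata6 at 25.1 and 24.0. The list summed to between 259 and 270 FPKM in the HSC libraries and between 413 and 496 FPKM in BMDM. The sum was thus not lower in BMDM, but 24 of its genes reached a mean of 1 FPKM in HSCs and 5 did in BMDM. The part of macrophage RNA in its HSC values was not tested.

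**Figure D2:**
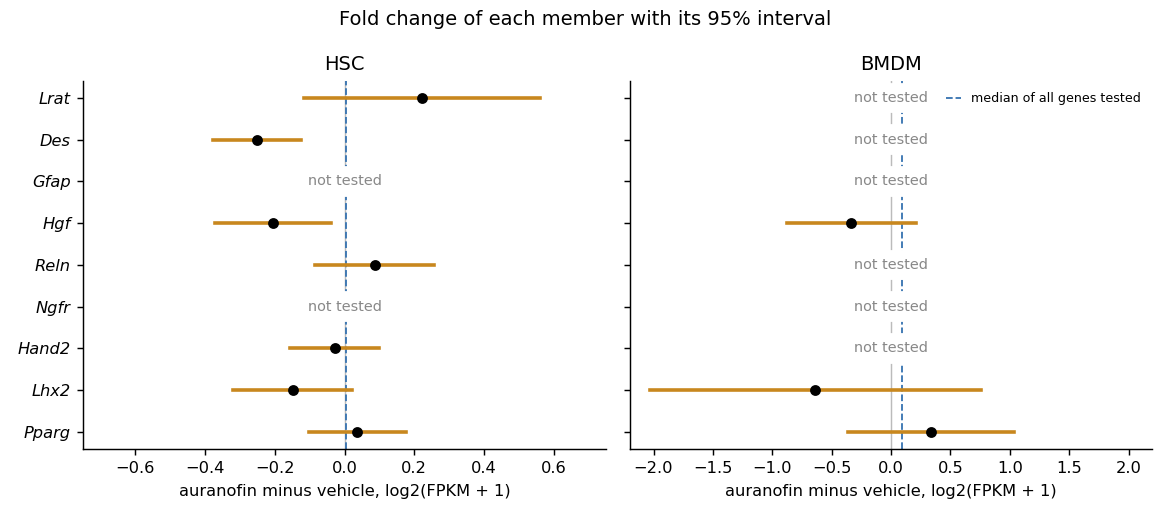
Log2 fold change, auranofin minus vehicle on log2(FPKM + 1) (x axis, with a wider scale for BMDM), of each member (y axis) in HSC and BMDM, as points with limma's 95% interval. The dashed line is the median of all genes tested; in HSC the intervals of Des and Hgf lie below 0, and in BMDM all 3 intervals include 0.

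Genes of the activated state were read beside those of quiescence. Over the 8 related lists, 109 genes were tested in HSCs and 10 were called. Of all 12149 genes tested, 2.33% were called, 151 of them higher and 132 lower. Of 14 myofibroblast genes 3 fell and 0 rose, with a median of -0.16: Acta2, α-smooth muscle actin, fell from 960 ± 6.49 to 740 ± 4.59 FPKM (SD, n = 2; log2 fold change -0.38, adjusted p 0.00719 in limma), and Cnn1 and Myl9, of the contractile apparatus, fell by 0.36 and 0.34 on the log2 scale (adjusted p 0.0361 and 0.0130). Col1a1, the collagen chain used as the reference for matrix production, measured 1038 ± 52.2 and 950 ± 32.4 FPKM (adjusted p 0.253). Of 12 further stellate markers tested, 0 were called, and the median was -0.08. Dcn, the proteoglycan decorin, was at 350 and 332 FPKM in the group means, Ecm1 at 191 and 193, and Prelp at 107 and 88.3 (adjusted p 0.0662). The difference in the share of calls between the lists was not tested. None of the 10 calls held without the filter on low values, where 49 of all genes were called.

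Lists of markers kept for other cell types were read beside these values. Over all 12149 genes tested in HSCs, 5803 were lower in auranofin and 132 were called lower. All 9 tested genes of the smooth muscle and pericyte list were lower in auranofin, 5 of them called, and the list summed to between 346 and 362 FPKM in vehicle and between 271 and 287 in auranofin. It holds Cnn1, which is also in the myofibroblast list, and was led by Actg2 (138 ± 9.99 to 105 ± 4.73 FPKM, SD, n = 2), Cnn1 and Smtn (40.3 ± 1.67 to 31.3 ± 0.638 FPKM). Of 11 portal fibroblast and mesothelial genes, 10 were lower, with a median of -0.18, and 3 were called. The sums were 1025 to 1096 FPKM in vehicle and 952 to 997 in auranofin. The 3 called genes, named after their values were seen, were Gpm6a (log2 fold change -0.44), Msln, mesothelin (-0.41), and Upk1b (-0.39), with adjusted p-values in limma of 0.0171, 0.0434 and 0.0439. By level this list was led by Fbln2 at 531 and 501 FPKM in the group means, Gas6 at 216 and 225, the gene that was higher, and Upk3b at 146 and 117. As for the related lists, no call in the lists of other cells held without the filter on low values, where the adjusted p of the smooth muscle genes in limma ran from 0.0538 for Myh11 to 0.138 for Actg2. Which cells of the HSC libraries, activated HSCs or others, carried the genes of either list was not tested. Nor was the part of either list in the lower Des, Hgf and Lhx2 values.

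Of 14 macrophage markers tested, 4 were higher and 10 lower, and 1 was called in each direction. Chosen after their values were seen, the called genes were Clec4f, a Kupffer cell lectin, which rose from 58.9 ± 0.447 to 71.3 ± 3.14 FPKM (SD, n = 2), and Mrc1, the mannose receptor, which fell from 87.6 ± 1.89 to 71.8 ± 3.27 FPKM (adjusted p 0.0395 in limma for each). By level Lyz2, Cd5l at 1486 and 1617 FPKM and C1qc at 708 and 651 led. Endothelial markers summed to between 440 and 466 FPKM over the 4 libraries. Of 13 tested, 6 were higher and 7 lower, and 2 were called, both lower. These were the sinusoidal markers Stab2, from 21.1 ± 0.614 to 16.1 ± 0.274 FPKM (SD, n = 2; log2 fold change -0.37, adjusted p 0.0169 in limma), and Clec4g, from 20.3 ± 0.146 to 14.7 ± 0.687 FPKM (-0.44, adjusted p 0.0130), again named after their values were seen. The most abundant, Cdh5, Egfl7 and Stab1, were each between 66.3 and 77.0 FPKM in the group means and were not called. Hepatocyte markers summed to at most 2.24 FPKM in every HSC library and none was tested. Glial markers, which matter because Gfap and Ngfr are also glial genes, had 2 of 9 tested and 0 called, and Sox10, Foxd3 and Cdh19 are not listed. Of the cholangiocyte list 3 genes were tested, and of the lymphocyte list 1, with 0 called in each.

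**Figure D3:**
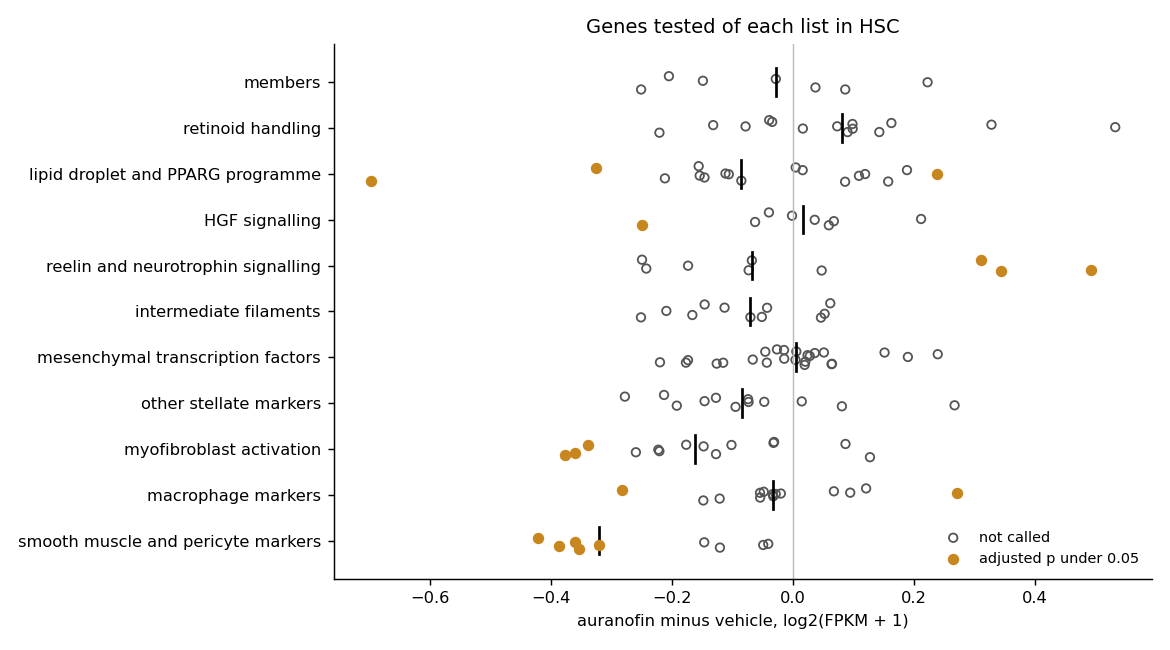
Log2 fold change in HSC, auranofin minus vehicle on log2(FPKM + 1) (x axis), of every tested gene of the members and of 10 lists (rows). Each point is a gene, filled amber where the adjusted p in limma was under 0.05, and the black line is the median of the list; the members centre near 0, and the smooth muscle and pericyte list has the lowest median, -0.32.

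In BMDM the order of the members was another one. Lhx2 was highest, at the 92.5th percentile of all listed genes by its vehicle mean, then Pparg at percentile 64.9 and Hgf at percentile 61.2. The ranges of these 3 did not overlap one another. Gfap was listed at 0 in the 4 libraries, and Des, Reln, Ngfr and Hand2 reached at most 0.030 FPKM. For Des and Ngfr these were values of an estimated 1 fragment at most and for Hand2 of 2. A value of 0 for Des allows up to 0.036 FPKM at these estimated depths by counting error alone. The levels of the 2 tables, which were normalized separately, stand side by side here without a test: Hgf was at 10.2 FPKM in vehicle HSCs and 3.28 in vehicle BMDM, and Pparg at 11.0 and 4.29. Lhx2 ran the other way, with 3.09 and 2.91 FPKM in the vehicle HSC libraries and a mean of 52.1 FPKM in vehicle BMDM.

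The differences between the BMDM groups rested on the first auranofin library for Lhx2 and Pparg, and mainly on it for Hgf. Lhx2 measured 52.7 and 51.5 FPKM in vehicle and 20.1 and 54.3 FPKM in auranofin. The second auranofin library was above both vehicle libraries and the first far below them. Pparg measured 4.22 and 4.37 FPKM in vehicle and 7.35 and 4.35 FPKM in auranofin, again with the first auranofin library alone apart and the second within the vehicle range. Hgf measured 3.22 and 3.33 FPKM in vehicle and 1.91 and 2.96 FPKM in auranofin. For Hgf both auranofin libraries were below the vehicle libraries, the first by more.

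Against the vehicle mean on the log2(FPKM + 1) scale, the first auranofin library differed by -1.33 for Lhx2, 0.66 for Pparg and -0.56 for Hgf. The second differed by 0.06, 0.02 and -0.11. In limma over the 9232 BMDM genes that passed the same filter, 0 of the 3 members tested had an adjusted p under 0.05, as did 0.0108% of all genes, and 0 of the 3 had an unadjusted p under 0.05, against 0.531% of all genes. None passed the rule of 1.5-fold with an unadjusted p under 0.05, which 0.152% of all genes met. The groups did not overlap for 1 of the 3, Hgf, against 38.8% of all genes. The log2 fold changes were -0.64 for Lhx2 (SE 0.502, 95% interval -2.03 to 0.76), 0.34 for Pparg (SE 0.252, -0.36 to 1.04) and -0.33 for Hgf (SE 0.197, -0.88 to 0.21), each with an adjusted p of 0.721 in limma. The median of the 3 was -0.33, beside 0.09 for all genes tested.

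With the first auranofin library left out, the log2 fold changes were 0.06 for Lhx2, 0.02 for Pparg and -0.11 for Hgf, with adjusted p-values in limma of 0.704, 0.953 and 0.671. In that fit 0.166% of all genes passed. With the second left out instead, they were -1.33, 0.66 and -0.56, and all 3 members passed, as did 65.2% of all genes tested. The lone auranofin library is assumed in each of these fits to vary like the vehicle libraries. Whether the first auranofin library differs by treatment, culture or library preparation cannot be told apart with 1 library.

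**Figure D4:**
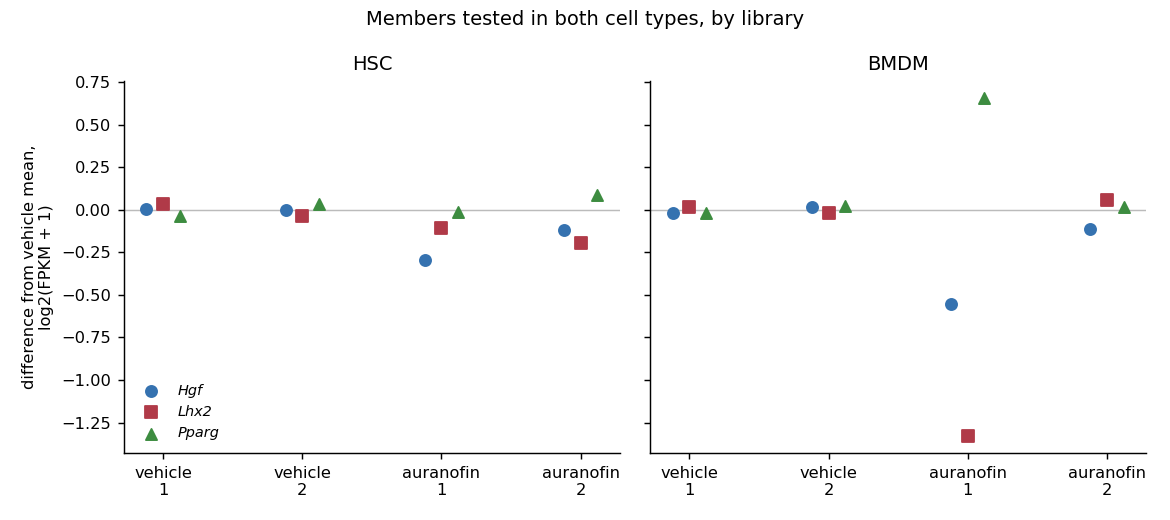
Difference of each library from the vehicle mean of its cell type on log2(FPKM + 1) (y axis), for the 3 members tested in both cell types, by library (x axis). In BMDM the first auranofin library lies at -1.33 for Lhx2, 0.66 for Pparg and -0.56 for Hgf, while the second lies at 0.06, 0.02 and -0.11; in HSC the lowest value is -0.29, for Hgf in the first auranofin library.

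The same library stood apart in the genes around these members. No gene of the related lists was called in BMDM, of 47 tested. Of the lipid droplet and PPARG list, Plin2 measured 503 and 493 FPKM in vehicle and 697 and 523 FPKM in auranofin, Lpl was at 499 and 478 FPKM in the group means, and Cd36 at 264 and 303. In the HGF list, Plau was at 64.8 and 58.1 FPKM in vehicle and at 126 and 60.4 FPKM in auranofin, and Met, the HGF receptor, at 12.1 and 11.2 FPKM in vehicle and at 20.6 and 10.1 FPKM in auranofin. The median difference from the vehicle mean over the 15 lipid droplet and PPARG genes tested was 0.32 in the first auranofin library and 0.00 in the second, beside 0.18 and 0.00 over all genes tested.

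The genes whose values over the 8 libraries lay nearest to each member were found by Euclidean distance of gene-centred log2(FPKM + 1), over the 12148 other genes tested in HSCs, with genes not listed in BMDM taken as 0 there. The distance takes in the step in level between the cell types as well as the differences within each. Nearest to Hand2 were Peg3 at a distance of 0.0768, Parm1 and Adam12, and nearest to Reln were Wasf1 at 0.0978, Shank3 and Kcnk5. Nearest to Des were Parva at 0.187, Sdpr and Col12a1, and nearest to Lrat were Dok5 at 0.186, Vdr and Dffa. Pparg lay nearest to Naa16 at 0.0985, Zdhhc20 and Stk11ip, and Hgf to Tnrc18 at 0.132, Plcb3 and Carm1. Lhx2 had the most distant neighbours, Cd180 at 0.259, Tlr3 and Acsl1, and these genes too were at higher values in BMDM than in HSCs, with Cd180 at 459 and 33.4 FPKM in the vehicle means.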

How the data were processed

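RNA was isolated with Trizol and libraries were made with a stranded mRNA kit, in 4 groups of 2 libraries. The authors deposited FPKM values in 2 tables, 1 per cell type, on mm10 with RefSeq transcripts. Per the submitters' processing notes, CASAVA, FastQC 0.11.7, Trimmomatic 0.38, HISAT2 2.1.0 and StringTie 1.3.4d were used. FPKM sums the transcripts of a gene, so isoforms of Pparg or Hgf cannot be separated, and the tables hold no counts.

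Columns were matched to samples by name. Each table was fitted alone with limma 3.58.1 in R 4.3.3 (lmFit, eBayes with trend) on log2(FPKM + 1) for genes whose mean reached 1 FPKM in the 4 libraries, with Benjamini-Hochberg adjustment over all genes tested, and a gene was called at an adjusted p under 0.05. The smallest p that an exact permutation test can give with 2 libraries a group is 0.333. Cell types were not compared by a test. The script was tested on simulated data. No library was a copy of another.

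Depth was estimated from 1-fragment steps in values under 0.2 FPKM with GENCODE M21 lengths, so it covers counting error only. Positions and promoters come from RefSeq on GRCm38.p6, the same assembly as mm10, in which all 9 members matched. The members and lists were chosen with earlier results of these data known. Besides the members, the text names, per list, up to 3 genes called in each direction or else the 3 of highest level, the 3 highest genes of each marker list of other cell types, and Acta2 and Col1a1. Some genes that this rule would name are not reported here. Bex3, Gucy1a1 and Gucy1b1 were not found under these symbols. Alternatives were a pseudocount of 0.1, no filter or a mean of at least 5 FPKM, quantile or median scaling, eBayes without trend, the replicate number as a block, and each library left out. Those for the related lists were added after seeing the data. Python 3.11.15, numpy 2.4.6, pandas 2.3.3 and matplotlib 3.10.9 were used.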

Additional observations from a re-analysis of the deposited data

How the results depend on the processing

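Of the values for single members, 98 under the alternatives kept their direction and side of the threshold, 4 passed it and 4 changed sign. The number of members called remained 0 in HSCs under every alternative except leaving out a library (0 to 1; 1 without the first vehicle library), and 0 in BMDM likewise (0 to 3; 3 without the second auranofin library). The median of the members in HSCs was -0.12 at a mean of at least 5 FPKM, where 4 members were left. In BMDM it was -0.00108 without the filter, where 7 members were fitted, and -0.556 to 0.0164 with a library left out. The sign of Hand2 in HSCs turned without the first vehicle library (0.0158) or the first auranofin library (0.0098), over a range of -0.0727 to 0.0158, that of Pparg in HSCs without the second auranofin library (-0.0143; range -0.0143 to 0.0885), and that of Lhx2 in BMDM without the first auranofin library (0.0589; range -1.33 to 0.0589). The cause was not tested. No scaling, quantile or median, turned the sign of a member.

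The calls in the related lists depended more on the fit. Against 10 genes called in HSCs, 0 were called without the filter on low values, 3 with eBayes without trend, and between 5 and 15 with a library left out. In BMDM 0 to 30 were called with a library left out. With the replicate number as a block, 0 members were called in either cell type, where 282 of all genes were called in HSCs and 1 in BMDM. The related lists had 16 calls in HSCs in that fit. Lrat (SE 0.069 in place of 0.137, adjusted p 0.202 in limma) had an unadjusted p under 0.05 there in addition to Des and Hgf. The share of all genes under that unadjusted p was not counted for the block fit. The adjusted p in limma of Des was 0.1000. The replicate numbers were not taken as pairing in the main fit. Deviations of same-numbered libraries correlated at 0.109 in HSCs and -0.0551 in BMDM. With 2 pairs each, this cannot decide whether the libraries are paired. Ngfr and Gfap in HSCs, and 5 members in BMDM, were below the filter of a mean of 1 FPKM and were not tested in the main fit. Fitted without the filter, Ngfr in HSCs had a log2 fold change of -0.05 (adjusted p 0.586 in limma).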

Other observations

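Values outside the comparisons of the report, chosen after they were seen, are given without an explanation. Of the lipid droplet and PPARG list in BMDM, Cebpa, an adipocyte and myeloid transcription factor that works with PPARγ, was at 0.3799 and 0.505 FPKM without drug, at 13.9 FPKM in the first auranofin library and at 0.605 FPKM in the second. Rxra, which encodes the partner receptor of PPARγ, was at 0.996 and 0.956 FPKM in vehicle and at 2.79 and 0.881 FPKM in auranofin. Nr1h3, which fell in HSCs, was at 13.9 and 14.5 FPKM in vehicle BMDM and at 8.45 and 13.2 FPKM in auranofin. In HSCs, Crabp2, a retinoic acid-binding protein, measured 3.23 FPKM in vehicle and 5.14 FPKM in auranofin in the group means and was not called. Cyp26b1, which degrades retinoic acid, differed more between replicates than between groups in HSCs. It was at 28.8 and 8.52 FPKM in vehicle and 35.9 and 11.1 FPKM in auranofin, higher in the first library of both groups.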
